A study of Mus musculus with 8 samples.

Results

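The genes described here encode the proteins of the cytosolic ribosome, measured in the liver of fasted mice that had or had not drunk hydrogen water. They were taken by name from 19938 genes: every symbol that begins with Rpl or Rps and a number, together with Rplp0, Rplp1, Rplp2 and Rpsa, but without the Rps6k kinases and the pseudogenes. The rule found 63 genes. Of these, 33 encode canonical proteins of the large subunit and 21 encode canonical proteins of the small subunit. A further 7 are paralogs, which are second copies of a ribosomal protein gene, namely Rpl3l, Rpl7l1, Rpl10l, Rpl32l and Rpl39l for the large subunit and Rps4l and Rps27l for the small one. The remaining 2, Rps19bp1 and Rps23rg1, fit the name but encode no ribosomal protein. They were kept in the counts over 63 genes, left out of both subunits and described on their own.

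The livers came from C57BL6 mice, all of them fasted for 17 h. The hydrogen water group had drunk hydrogen water for 4 weeks from 7 weeks of age, and each group is represented by 4 samples. The sample labels do not give the sex of the animals or what the control animals drank. Their treatment field carries the hydrogen water text for the controls too, so the groups were taken from the sample titles. Because the labels do not state that each array is a separate animal, the spread between arrays, and every p-value built on it, may be partly technical. The RNA was hybridised to Affymetrix Mouse Gene 1.0 ST arrays, on which a probe set is the group of probes that reports a transcript, and the values are log2 signals as the authors deposited them. Signals of different probe sets cannot be compared as amounts. The median level of all genes (5.87) serves below only to mark dim probe sets, and every difference is of 1 gene between arrays, as a log2 difference in which 1 stands for a doubling.

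The ribosome joins amino acids in the order that the messenger RNA sets, and its subunits are built in the nucleolus from ribosomal RNA and near-equal numbers of each ribosomal protein. The mRNAs of the ribosomal proteins are among the most abundant of most cells, and in vertebrates they begin with an oligopyrimidine tract (a C followed by a run of C and T) through which the nutrient-sensing kinase mTORC1 controls their translation. In the liver, fasting lowers ribosome content, and feeding restores it. Several ribosomal proteins also act outside the ribosome, among them Rpl5 and Rpl11, which bind the p53 regulator Mdm2 when ribosome assembly fails.

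The start of a ribosomal protein gene is shown for the 6 canonical genes whose level over the 8 arrays followed that of the other canonical genes most closely and for the 3 that followed it least, among those with an entry in the RefSeq promoter table. Each line runs from 40 bases before the transcript start to 20 bases after it, 5′ to 3′ on the strand of the gene, in the GRCm38.p6 build. Capitals mark the pyrimidine tract, here the longest run of C and T that begins with C, is at least 5 bases long and lies between 10 bases before and 20 bases after the start. The windows are those of Rps25 (chr9:44407674-44407733, plus strand), Rps21 (chr2:180257339-180257398, plus strand), Rpl19 (chr11:98026670-98026729, plus strand), Rpsa (chr9:120127726-120127785, plus strand), Rps18 (chr17:33955646-33955705, minus strand) and Rpl5 (chr5:107900488-107900547, plus strand), followed by Rpl41 (chr10:128549149-128549208, minus strand), Rpl28 (chr7:4792925-4792984, plus strand) and Rps6 (chr4:86857348-86857407, minus strand).
Rps25: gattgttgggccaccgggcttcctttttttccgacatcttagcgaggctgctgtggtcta
Rps21: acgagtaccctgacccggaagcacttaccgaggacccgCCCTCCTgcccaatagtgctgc
Rpl19: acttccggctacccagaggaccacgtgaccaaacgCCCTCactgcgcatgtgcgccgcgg
Rpsa: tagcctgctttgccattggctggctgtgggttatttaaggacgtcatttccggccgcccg
Rps18: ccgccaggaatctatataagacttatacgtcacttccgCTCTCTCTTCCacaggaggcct
Rpl5: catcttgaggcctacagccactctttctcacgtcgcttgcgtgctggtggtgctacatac
Rpl41: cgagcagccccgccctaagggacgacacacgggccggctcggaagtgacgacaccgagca
Rpl28: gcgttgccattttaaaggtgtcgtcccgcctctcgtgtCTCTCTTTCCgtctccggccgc
Rps6: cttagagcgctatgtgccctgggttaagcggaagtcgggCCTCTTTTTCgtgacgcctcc
Tracts were present on both sides of this choice. Rps18 carries one of 11 bases among the genes that followed the others most, and Rps6 and Rpl28 carry one of 10 bases each among those that followed least, while Rps25, Rpsa, Rpl5 and Rpl41 have no run of the required length between 10 bases before and 20 bases after the start. The longer runs of C and T that the lines of Rps25 and Rpl5 show lie largely or wholly upstream of that stretch and were not counted. No probe set of Rpl41 was placed at the position of this promoter, so its signal may be that of a copy elsewhere in the genome.

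Of the 54 canonical genes, 43 had a promoter entry of 300 bases (250 before the start and 50 after it). The pyrimidine tract was found in 23 of the 43 (53.5%), against 35.8% of 27025 mouse promoters of the same length. CCGGAAG, the core of the motif of ETS-family factors, stood on either strand in 16 (37.2%), against 9.12% of all promoters. AAGATGG, the core of the YY1 motif, was in 3 (6.98%) against 6.48%, and TATAAA, the TATA box, was in 4 (9.30%) against 14.2%. Both of these were also searched on both strands, and CCGGAAG and AAGATGG can share the letters AAG. A match describes the letters only.

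The labelled tissue was checked first. All 11 measured hepatocyte markers of a list of 12 lay above the median level of all genes, with Alb (albumin) at a mean log2 signal of 14.35. Their mean centred level (each gene minus its own mean over the 8 arrays) ran from -0.03 to 0.03 in the controls and from -0.03 to 0.09 with hydrogen water. Among the other cell types, Kupffer cells (macrophages that line the sinusoids) had 13 of 14 markers higher in the hydrogen water group, with a median difference of 0.31. Sinusoidal endothelium had 12 of 12, with a median of 0.28. The remaining lists did not have a median difference of this size. Higher were 1 of 6 cholangiocyte markers (median -0.11), 5 of 12 stellate and fibroblast (-0.07), 5 of 10 lymphocyte (-0.01) and 3 of 3 erythroid (0.02). Only 1 of the 6 cholangiocyte and 1 of the 10 lymphocyte markers lay above the median level of all genes, so both lists were mostly dim. Above it were 10 of 14 Kupffer and 12 of 12 endothelial markers. Of all genes, 9715 were higher and 10223 lower. The mean centred Kupffer level ran from -0.37 to 0.13 in the controls and from -0.16 to 0.56 with hydrogen water, and the mean centred endothelial level from -0.42 to 0.11 and from -0.18 to 0.41. The part of these markers in the values of the ribosomal protein genes was not tested, and in whole liver a change in the share of a cell type and a change in the RNA of each cell cannot be told apart. The median signal of an array ranged from 5.27 to 5.37.

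The ribosomal protein genes varied together from array to array, in both subunits and within both groups. The mean of the 54 canonical genes was low on control 3 and on hydrogen water 4 and high on control 2. For the large subunit, the mean centred level was 0.08, 0.20, -0.23 and 0.07 in controls 1 to 4 and 0.14, 0.05, -0.09 and -0.22 in hydrogen water 1 to 4. For the small subunit it was 0.12, 0.27, -0.36 and 0.10 in the controls and 0.16, 0.10, -0.03 and -0.35 with hydrogen water. Both subunits thus had the same high array and the same pair of low arrays, 1 in each group, and the groups overlapped along their whole range. Control 3 or hydrogen water 4 was the lowest of the 8 arrays for 50 of the 63 genes (79.4%), against 34.2% of all genes. Control 2 was the highest for 32 of the 63, a count for which the share over all genes was not taken.

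**Figure D1:**
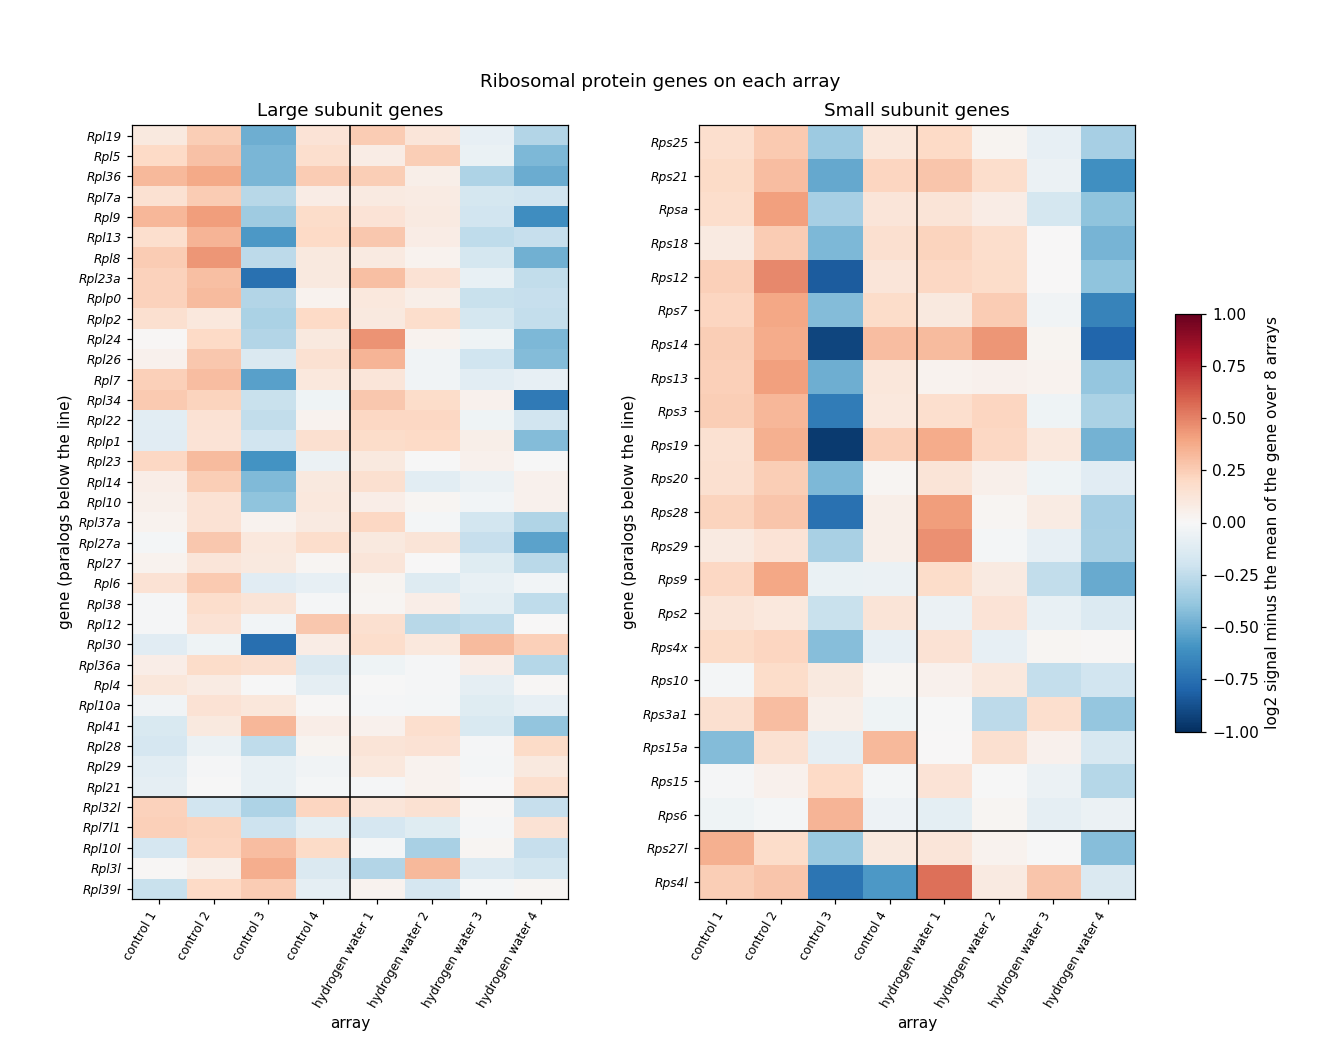
The colours show, for each of 61 ribosomal protein genes (rows, large subunit on the left and small subunit on the right) and each of 8 arrays (columns), the log2 signal minus the mean of that gene over the arrays, from -1 (blue) to 1 (red). Within each subunit the canonical genes stand above the line, ordered by their correlation with the other canonical genes, and the columns of control 3 and hydrogen water 4 are blue for most rows, except near the foot of each panel.

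The small subunit moved over a wider range than the large one. The median standard deviation over the 8 arrays was 0.28 for the 23 small subunit genes and 0.22 for the 38 large subunit genes, against 0.18 for all genes and 0.20 for genes above the median level. The widest ranges belonged to Rps14 (1.36), a protein of the platform of the small subunit, Rps19 (1.33), which is needed for the maturation of 18S ribosomal RNA and is mutated in Diamond-Blackfan anaemia, and Rps12 (1.31). Rps14 measured 12.05, 12.17, 10.88 and 12.12 in the controls and 12.12, 12.24, 11.84 and 11.01 with hydrogen water. Control 3 and hydrogen water 4 were thus about 1 log2 unit under the other arrays of their groups, and the difference between the groups was -0.00 with an SE of 0.31. Rpl4 (0.21), Rpl29 (0.21) and Rpl21 (0.26), all of the large subunit, had the narrowest ranges. No probe set of Rpl29 or Rpl21 was placed at the gene's own position in the genome, so their signals may be those of copies.

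The correlation between genes is given as a description over 8 arrays. The sources used here do not say whether the arrays were hybridised together or how they were normalized. The part of such handling in the correlations was not tested. Over the 1953 pairs of the 63 genes the median Pearson r was 0.45, with 79.9% of pairs above 0, whereas pairs of all genes had a median of 0.00 and pairs of genes above the median level 0.04. With the group means taken off the median was 0.48, and without control 3 and hydrogen water 4 it was 0.44, where genes above the median level had 0.03. Pairs within the canonical small subunit had a median r of 0.68, pairs within the canonical large subunit 0.48, and pairs of 1 gene from each 0.58. Without control 3 and hydrogen water 4 the canonical small subunit had 0.56 and the canonical large subunit 0.53, so most of the gap between the subunits came with those arrays. The paralogs had a median r of -0.18 over 21 pairs. Among them Rpl3l, Rpl10l and Rpl39l lay below the median level of all genes, so their correlations may be mostly noise. Mitochondrial ribosomal protein genes, which build a separate ribosome, had a median of 0.32 over 77 genes, and the subunits of the proteasome, another large complex, 0.12 over 40 genes.

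**Figure D2:**
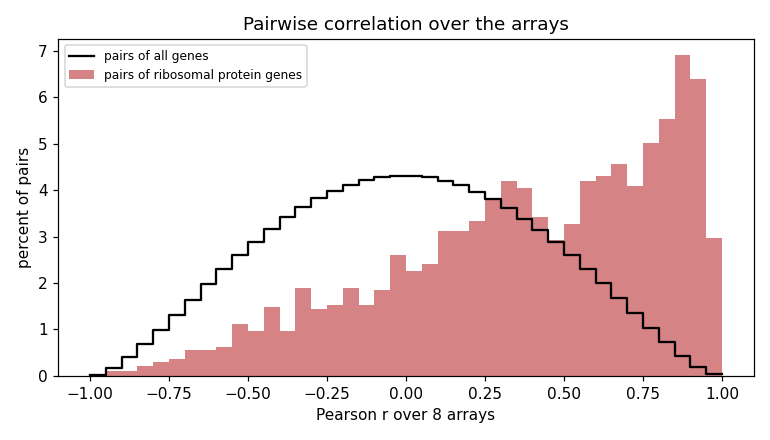
The bars give the percentage of the 1953 pairs of ribosomal protein genes, and the line the percentage of all pairs of 19938 genes, in bins of Pearson r over 8 arrays. The pairs of all genes centre on 0, while those of ribosomal protein genes have a median of 0.45 and their highest bar between 0.85 and 0.9.

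Single genes differed in how closely they followed the rest. The correlation of a gene with the mean of the other canonical genes was above 0.9 for 20 of the 63 and below 0 for 6. Rps25 had the highest (0.99), followed by Rps21 (0.98), Rpl19 (0.97), Rpsa (0.97) and Rps18 (0.97). Rps25, a small subunit protein used by viral internal ribosome entry sites, measured 11.87, 11.97, 11.34 and 11.82 in the controls and 11.91, 11.73, 11.62 and 11.37 with hydrogen water, so that its lowest array in each group was the same as for most of the others. At the other end stood Rps6 (-0.54), Rpl21 (-0.36), Rpl39l (-0.30), Rpl3l (-0.20), Rpl29 (-0.02) and Rpl10l (-0.01), with Rpl28 (0.11) and Rpl41 (0.17) next. Of these, Rpl39l, Rpl3l and Rpl10l were dim, below the median level of all genes. For Rpl21, Rpl29 and Rpl41 no probe set was placed at the gene's own position in the genome, so the signal may be that of a copy. Rps6 carries the phosphorylation sites of the S6 kinases that act downstream of mTORC1. It measured 13.36, 13.39, 13.74 and 13.35 in the controls and 13.31, 13.42, 13.32 and 13.35 with hydrogen water. Control 3, the lowest array for 28 of the 63 genes, was its highest, and the other 7 arrays lay close together.

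The genes outside the list that were most like the mean profile of the 63, among those above the median level and by Pearson r over 8 arrays, were Map1lc3a (0.99), Gjb1 (0.98), Mrpl54 (0.98), Micos10 (0.97), Taf10 (0.97), Mrpl11 (0.97), Adprhl2 (0.97) and Ssr4 (0.97). Each of the 8 was lowest on control 3 or hydrogen water 4, which follows from choosing them by likeness to this profile. The centred level of Map1lc3a, an autophagosome protein gene, was 0.09, 0.23, -0.37 and 0.12 in the controls and 0.24, 0.11, -0.09 and -0.33 with hydrogen water, close to that of the canonical genes themselves.

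Some features of the arrays moved along with this profile. Ribosomal protein genes are short, with a median genomic span of 3352 bases. Among other genes above the median level, the 148 with an r above 0.9 to the mean profile had a median span of 7649 bases, the 115 with an r below -0.9 had 50691 bases, and all 9912 had 22728 bases. The shortest 20% of those genes had a median centred level of -0.08 on control 3 and -0.07 on hydrogen water 4, where the longest 20% had 0.01 and 0.17. The 51 small nucleolar RNA genes measured, which encode short RNAs that guide the modification of ribosomal RNA, had a median of -0.33 on control 3 and -0.90 on hydrogen water 4, against 0.02, 0.29 and 0.19 on the other controls. The 1591 other genes with a mean level above 10 had -0.05 and 0.07 on those arrays. The part of transcript length or of RNA handling in the profile of the ribosomal protein genes was not tested.

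**Figure D3:**
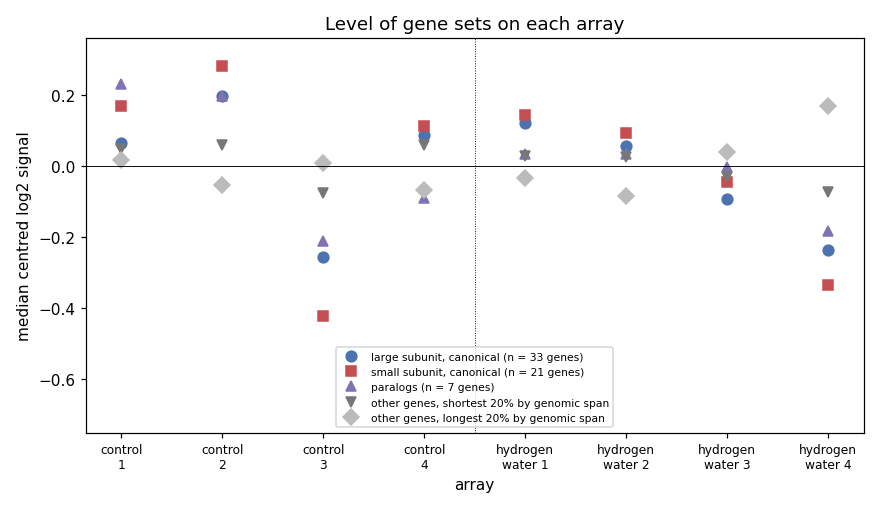
Each point is the median, over the genes of a set, of the log2 signal centred on each gene's own mean (vertical axis) on 1 of 8 arrays (horizontal axis). The sets are the canonical large and small subunit genes, the paralogs, and the shortest and the longest 20% by genomic span of other genes above the median level. The subunit points are lowest on control 3 (-0.26 and -0.42) and hydrogen water 4 (-0.24 and -0.33).

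Small nucleolar RNAs are often made from the introns of ribosomal protein genes, and 12 measured ones lie within 10 of the 63 genes. Their median centred level was 0.02, 0.38, -0.38 and 0.24 in the controls and 0.36, 0.26, 0.05 and -1.10 with hydrogen water. The order of the arrays resembled that of the host genes, with control 2 high and control 3 low, but hydrogen water 4 lay further down. Snora33 was at -1.73 on hydrogen water 4 where its host Rps12 was at -0.40, and Snora70 was at -1.11 where its host Rpl10 was at 0.04. Snord42b was an exception, at 0.14 where its host Rpl23a was at -0.25. Between the groups, Snora3 had the largest log2 difference of the 12, -0.93 (SE 0.40), hydrogen water minus control. Its host Rpl27a had a difference of -0.27 (SE 0.15). Such a match in sign was not general: Snora70 had -0.44 (SE 0.28) where Rpl10 had 0.05, and Snord42a -0.42 (SE 0.30) where Rpl23a had 0.06.

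The study compared hydrogen water with control, and no ribosomal protein gene passed the test. In limma with Benjamini-Hochberg adjustment over 19938 genes, 0 of the 63 had an adjusted p under 0.05, as had 0% of all genes, and the lowest adjusted p of the 63 was 0.683. Only Rpl30 and Rpl28, 2 of the 63, had an unadjusted p under 0.05, both higher with hydrogen water, against 7.17% of all genes in both directions and 3.6% in this direction. The values of the groups did not overlap for 1 of the 63, Rpl30, against 3.76% of all genes. The counts for the 63 genes were thus no larger than those of genes in general.

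The differences were small on both subunits. The median difference, hydrogen water minus control, was -0.07 over the 63 genes, with 22 higher and 41 lower, -0.09 over the 38 large subunit genes, with 12 higher and 26 lower, and -0.07 over the 23 small subunit genes, with 8 higher and 15 lower. All 19938 genes had 9715 higher and 10223 lower. With each array centred on its own median over all probe sets, 13 of the 63 were higher and 50 lower, and the median over all genes was -0.04. These medians depended on control 3 and hydrogen water 4: without control 3 they were -0.16, -0.14 and -0.19 and 7 genes had an unadjusted p under 0.05 (Rpl30 higher, and Rpl7, Rpl8, Rpl9, Rpl36, Rps13 and Rpsa lower), against 8.57% of all genes, while without hydrogen water 4 they were -0.01, -0.05 and 0.05, with 31 genes higher and 32 lower. With control 3 and hydrogen water 4 both left out, 14 genes were higher and 49 lower. The medians also moved without control 1 (-0.04, -0.04 and -0.04), control 2 (-0.02, -0.03 and -0.02), control 4 (-0.06, -0.10 and -0.04), hydrogen water 1 (-0.12, -0.13 and -0.11) and hydrogen water 2 (-0.12, -0.11 and -0.12).

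The 95% interval of the difference lay within -1 to 1 for all 63 genes, so that a doubling or halving was outside each, and within -0.5 to 0.5 for 43. The median half-width was 0.33. The widest intervals belonged to Rps14 (from -0.68 to 0.67) and Rps19 (from -0.47 to 0.69).

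**Figure D4:**
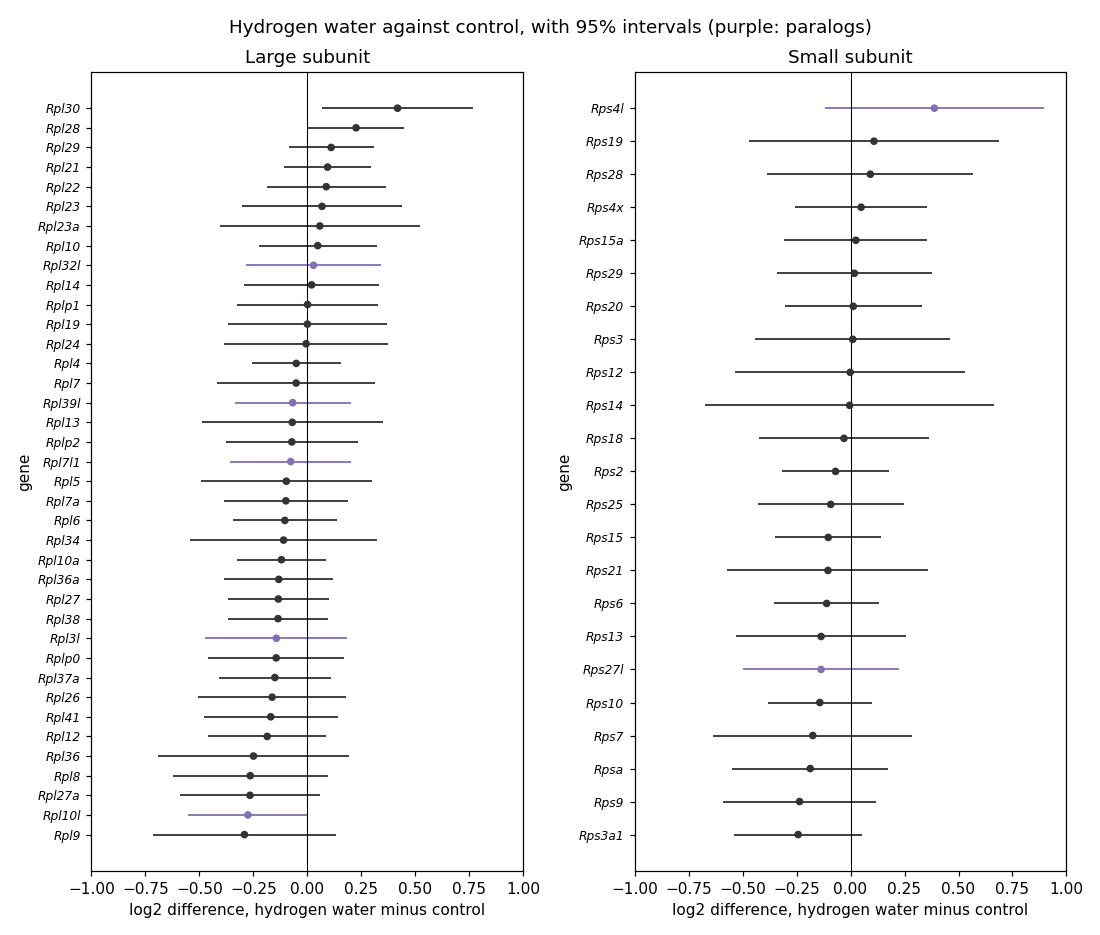
Points give the log2 difference, hydrogen water minus control, of each of 61 ribosomal protein genes, and lines the 95% interval from limma over 4 arrays a group, with paralogs in purple. The points run from -0.29 (Rpl9) to 0.42 (Rpl30), and the intervals of only Rpl30 and Rpl28 leave out 0.

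In the large subunit, Rpl30, which lies where the subunits meet, had the largest difference. It measured 6.77, 6.84, 6.14 and 6.97 in the controls and 7.06, 7.00, 7.20 and 7.13 with hydrogen water. Every hydrogen water array was above every control, narrowly so for control 4 and hydrogen water 2, and control 3 was far below the other controls. The means were 6.68 ± 0.37 and 7.10 ± 0.08 (SD, n = 4 each), a difference of 0.42 (SE 0.16, 95% interval 0.07 to 0.77), with an unadjusted limma p of 0.023 and an adjusted p of 0.683. Without control 3 the difference was 0.24. The single probe set of Rpl30 showed it, and no other probe set could be set beside it.

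Rpl28, a large subunit protein that budding yeast lacks, measured 12.05, 12.16, 11.96 and 12.24 in the controls and 12.34, 12.36, 12.21 and 12.40 with hydrogen water. Only control 4 and hydrogen water 3 overlapped. The difference was 0.23 (SE 0.10, limma unadjusted p 0.047, adjusted p 0.688), and its 5 probe sets gave between 0.20 and 0.23. Next in this direction, far from the threshold, were Rpl29 (0.11), Rpl21 (0.09), Rpl22 (0.09), an RNA-binding protein that is dispensable for translation, and Rpl23 (0.07).

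In the other direction the canonical large subunit genes with the smallest p-values were Rpl27a, Rpl8, Rpl9, Rpl12, Rpl10a and Rpl38, with limma adjusted p from 0.750 to 0.846. Rpl27a measured 11.37, 11.66, 11.50 and 11.57 in the controls and 11.49, 11.53, 11.16 and 10.86 with hydrogen water, a difference of -0.27 (SE 0.15). Hydrogen water 3 and 4 were below every control and hydrogen water 1 and 2 among them. All 9 probe sets of Rpl27a gave a negative difference, from -0.31 to -0.24. Rpl9, of the stalk-base region, had the most negative difference of the 63, -0.29 (SE 0.19), with 13.09, 13.18, 12.41 and 12.94 in the controls and 12.89, 12.85, 12.56 and 12.14 with hydrogen water. Rpl8, which reaches towards the peptidyl transferase centre, had -0.26 (SE 0.16), Rpl12 -0.19 (SE 0.13), Rpl10a -0.12 (SE 0.09) and Rpl38, required for the translation of Hox mRNAs in the mouse embryo, -0.14 (SE 0.11). Rpl12 was dim, below the median level of all genes. Its difference was -0.10 when probe sets that name several genes were admitted.

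The stalk of the large subunit, built from Rplp0, Rplp1 and Rplp2, recruits the elongation factors. Rplp0, its base and a frequent reference gene in quantitative PCR, measured 13.07, 13.15, 12.54 and 12.87 in the controls and 12.94, 12.89, 12.61 and 12.61 with hydrogen water. The groups overlapped, and the difference was -0.14 (SE 0.14). Rplp1 measured 12.93, 13.18, 12.86 and 13.21 against 13.23, 13.25, 13.10 and 12.61, with a difference of 0.00 (SE 0.15), and Rplp2, below the median level of all genes, had -0.07 (SE 0.14). All 3 followed the other canonical genes over the arrays, with r of 0.92, 0.80 and 0.89.

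Rpl5, which carries 5S ribosomal RNA into the large subunit together with Rpl11, measured 12.01, 12.10, 11.36 and 11.98 in the controls and 11.89, 12.06, 11.75 and 11.36 with hydrogen water. Its difference was -0.10 (SE 0.18), less than the spread within either group, and its 5 probe sets gave between -0.25 and -0.10. Rpl11 was reported only by probe sets that also name another gene and was not measured singly.

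**Figure D5:**
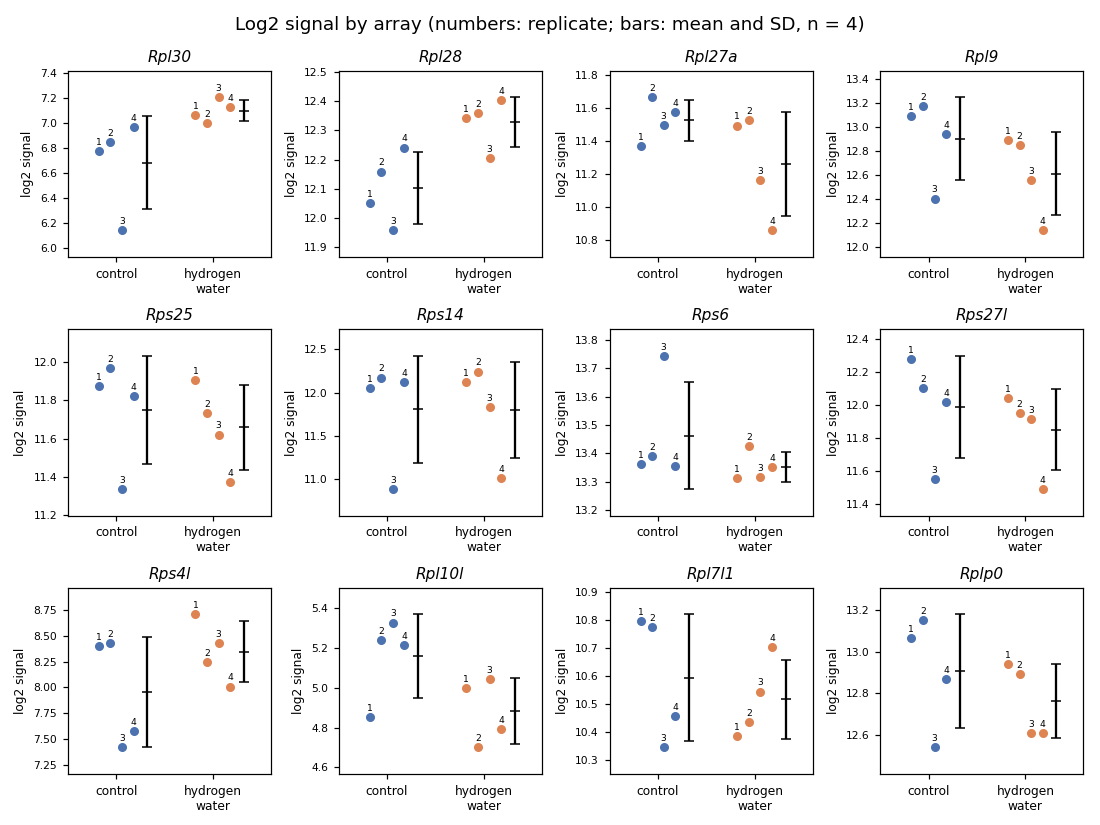
Each panel shows the log2 signal (vertical axis, its own scale) of 1 gene on the 4 control (blue) and 4 hydrogen water (orange) arrays, numbered by replicate, with the mean and SD beside them. Rpl30 is the only one of the 12 whose groups do not overlap, control 3 is the lowest control in 9 of the 12, and Rps6 is highest there.

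In the small subunit no gene had an unadjusted p under 0.05. Among canonical genes with a negative difference, the smallest p-values were those of Rps3a1, Rps9, Rps10, Rpsa, Rps6 and Rps15, with limma adjusted p from 0.751 to 0.893. Rps3a1 measured 8.08, 8.24, 7.98 and 7.88 in the controls and 7.92, 7.66, 8.09 and 7.54 with hydrogen water, a difference of -0.24 (SE 0.14). When probe sets that name several genes were admitted, a brighter one represented Rps3a1 and the difference was -0.01. Rps9 had -0.24 (SE 0.16), and Rps10, which marks collided ribosomes when it is ubiquitinated, -0.14 (SE 0.11). Rps15 had -0.10 (SE 0.11).

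Rpsa, also known as the laminin receptor precursor, is both a small subunit protein and a protein found at the cell surface. It measured 11.49, 11.72, 10.98 and 11.43 in the controls and 11.44, 11.38, 11.14 and 10.90 with hydrogen water, a difference of -0.19 (SE 0.17). Its 5 probe sets ranged from -0.19 to -0.09. Rps6 had a difference of -0.11 (SE 0.11), which was -0.02 without control 3, and all 8 of its probe sets gave a negative value, from -0.19 to -0.06.

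On the positive side the values of the canonical small subunit genes were close to 0. Rps19 had 0.11 (SE 0.27), Rps28 0.09 (SE 0.22), Rps4x 0.05 (SE 0.14), Rps15a 0.02 (SE 0.15), Rps29 0.02 (SE 0.16) and Rps20 0.01 (SE 0.15). Rps28 measured 11.16, 11.22, 10.20 and 10.99 in the controls and 11.35, 10.96, 11.02 and 10.60 with hydrogen water, so that the spread over the controls far exceeded the difference between the groups.

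Among the paralogs, Rps4l and Rpl10l had the largest differences, in opposite directions, and neither passed the test. Rps4l measured 8.40, 8.43, 7.42 and 7.58 in the controls and 8.71, 8.24, 8.43 and 8.01 with hydrogen water. Its controls formed a high and a low pair, and only the low pair lay below every hydrogen water array. The difference was 0.39 (SE 0.23, limma adjusted p 0.777), and its other probe set gave 0.14. Its canonical partner Rps4x, the X-linked gene, measured 11.40, 11.43, 10.79 and 11.13 against 11.35, 11.13, 11.23 and 11.23. Rpl10l, a retrogene that stands in for Rpl10 in male meiosis, measured 4.85, 5.24, 5.33 and 5.22 in the controls and 4.997, 4.70, 5.04 and 4.79 with hydrogen water, a difference of -0.28 (SE 0.13, limma adjusted p 0.698). It lay below the median level of all genes, and 3 of its controls were above every hydrogen water array. Rpl10 measured 12.63, 12.72, 12.18 and 12.68 against 12.64, 12.59, 12.55 and 12.62, with a difference of 0.05 (SE 0.13).

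Rps27l, a paralog of Rps27 and a p53 target, followed the canonical genes over the arrays (r 0.91). It measured 12.28, 12.10, 11.55 and 12.02 in the controls and 12.05, 11.95, 11.92 and 11.49 with hydrogen water, a difference of -0.14 (SE 0.17). Rpl7l1, whose product takes part in the assembly of the large subunit, followed them less (r 0.22). It measured 10.79, 10.78, 10.34 and 10.46 against 10.38, 10.43, 10.54 and 10.70, so that hydrogen water 4 was its highest array in that group, and the difference was -0.08 (SE 0.13). Its partner Rpl7 had -0.05 (SE 0.17) and an r of 0.85. Rpl32l had a difference of 0.03 (SE 0.14), which was -0.17 when probe sets that name several genes were admitted. Rpl3l, known from striated muscle, and Rpl39l, known from the testis, had mean levels between 3.04 and 3.64 and differences of -0.14 (SE 0.15) and -0.07 (SE 0.12). Their partners Rpl32, Rpl3 and Rpl39, and Rps27, the partner of Rps27l, were not measured singly. The reverse held for Rpl22 (0.09) and Rpl36a (-0.13), whose paralogs Rpl22l1 and Rpl36al were not measured singly.

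The genes that fit only by name behaved differently from each other. Rps19bp1, which encodes a nucleolar protein that binds Rps19, measured 8.37, 8.48, 7.60 and 8.20 in the controls and 8.40, 8.32, 8.24 and 8.23 with hydrogen water, a difference of 0.13 (SE 0.17), with an r of 0.77 to the canonical genes. Rps23rg1, a gene derived from a copy of Rps23, had a difference of 0.01 (SE 0.15) and an r of 0.35. It was dim, below the median level of all genes.

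Ribosomal protein genes have many processed copies elsewhere in the genome, and the arrays carry probe sets for some of them. For the 63 genes, 219 probe sets name 1 of them alone, and 39 genes have more than 1. The identifiers of the probe sets follow their order along the chromosomes, and by this order 57 of the 219 lie at the gene's own locus. The same rule placed 99.2% of 18890 genes with a single probe set at their own locus. The probe set used, which is the one with the highest mean, lay at the own locus for 31 genes and elsewhere for 32, so that in the latter it may report a copy, its near-identical parent or both. For 6 genes no probe set lay at the own locus: Rpl7a, Rpl21, Rpl29, Rpl37a, Rpl41 and Rps3a1. For the 26 genes with both kinds, 25 had the same direction by either, and the median correlation between them over 8 arrays was 0.98 (lowest 0.86). The exception in direction was Rpl19, at 0.00 by one and -0.09 by the other. Rps15 differed most, with -0.10 by the probe set used and -0.29 (SE 0.20) by the one at its own locus.

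By the rule, 89 protein-coding genes of RefSeq would belong to the group, and 27 of them are not among the 63. Of those 27, 20 share a probe set with another symbol, among them Rpl3, Rpl11, Rpl13a, Rpl15, Rps24 and Rps27. Fau, which encodes the small subunit protein S30 as a fusion with a ubiquitin-like protein and has no Rps name, measured 12.26, 12.24, 11.79 and 12.14 in the controls and 12.14, 12.07, 11.90 and 11.81 with hydrogen water. Its difference was -0.13 (SE 0.13), and its profile followed that of the 63 (r 0.94).

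The genes that serve the ribosome were counted over lists. None of them had an adjusted p under 0.05. Of 82 measured genes of ribosome biogenesis, 41 were higher and 41 lower, with a median difference of 0.01. Against 7.17% of all genes in both directions, 1 higher and 1 lower of the 82 had an unadjusted limma p under 0.05. These were Ddx47, an RNA helicase of the small subunit pathway, at 0.33 (SE 0.15, limma adjusted p 0.687), and Polr1d, a subunit of RNA polymerases I and III, at -0.32 (SE 0.14, limma adjusted p 0.687). Nop2 (0.29) and Utp18 (-0.23) came next. Their profile differed from that of the ribosomal proteins most clearly on hydrogen water 4, where the canonical genes were low. The mean centred level of the list was 0.12 there. It was -0.13 on control 3, where the canonical genes were also low, and 0.16 on control 2, where they were also high.

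Of 7 measured elongation factor genes 3 were higher and 4 lower, with a median of -0.05. Eef1b2, the exchange factor of elongation factor 1, measured 11.78, 11.80, 11.65 and 11.44 in the controls and 11.44, 11.49, 11.32 and 11.26 with hydrogen water, a difference of -0.29 (SE 0.11, limma adjusted p 0.680). Control 4 alone among the controls lay within the range of the hydrogen water arrays. Eef1a1, which delivers aminoacyl-tRNA, had -0.07 (SE 0.10), Eef2, the translocase, 0.08 (SE 0.10), and Eef1d 0.08 (SE 0.12).

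Of 30 measured initiation factor genes 14 were higher and 16 lower, with a median of -0.02. Pabpc1, the poly(A)-binding protein, whose mRNA also begins with an oligopyrimidine tract, measured 11.46, 11.50, 11.42 and 11.64 in the controls and 11.75, 11.75, 11.80 and 12.21 with hydrogen water. Its groups did not overlap, and the difference was 0.37 (SE 0.12, limma adjusted p 0.638). Its correlation with the mean profile of the 63 was -0.37, so that it did not move with them over the arrays. Eif2b4 had 0.16 (SE 0.10), and Eif2s2, the beta subunit of eIF2, and Eif3f had -0.33 (SE 0.12) and -0.24 (SE 0.11).

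Of 28 measured regulators of mTORC1 and of oligopyrimidine mRNAs, 20 were higher and 8 lower, with a median difference of 0.05, and 3 higher and 1 lower had an unadjusted p under 0.05, against 7.17% of all genes in both directions. Eif4ebp2, a repressor of cap-dependent translation that mTORC1 inactivates, measured 9.95, 9.90, 10.38 and 10.27 in the controls and 10.52, 10.47, 10.59 and 10.68 with hydrogen water. The groups did not overlap, and the difference was 0.44 (SE 0.12, limma adjusted p 0.631). Ddit4, an inhibitor of mTORC1 that is induced by stress and fasting, measured 7.06, 9.31, 8.01 and 7.29 against 8.96, 8.61, 8.31 and 9.99, with a difference of 1.05 (SE 0.45, limma adjusted p 0.687). Control 2 was above 3 of its hydrogen water arrays, and the range over the controls exceeded the difference. Mycn and Castor1, in the other direction, had -0.27 (SE 0.10) and -0.25 (SE 0.14). Mycn was dim, below the median level of all genes. The mean centred level of this list was 0.26 on hydrogen water 4 and between -0.10 and 0.01 on the other 7 arrays.

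Mitochondrial ribosomal protein genes were set beside the cytosolic ones as the most similar complex. Of 77, 21 were higher and 56 lower, with a median difference of -0.08, and 9, all lower, had an unadjusted p under 0.05 (lowest limma adjusted p 0.618), against 3.57% of all genes in that direction. Their mean centred level was 0.15, 0.16, -0.13 and 0.01 in the controls and 0.07, 0.03, -0.08 and -0.21 with hydrogen water, with control 3 and hydrogen water 4 lowest as for the cytosolic genes. Proteasome subunits had 19 higher and 21 lower of 40 and a median of -0.03. Whether these groups differ from the ribosomal protein genes was not tested.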

How the data were processed

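The values analysed are the authors' deposited log2 signals of 8 Affymetrix Mouse Gene 1.0 ST arrays, made, per the submitters' processing notes, in Affymetrix Expression Console. Its version is not given in the sources used here, and the same holds for background correction, normalization and genome build. Of 35556 probe sets, 21789 carried 1 gene symbol in the platform annotation, 1621 several and 12146 none; only the first were used, 1 per gene (highest mean over the arrays), which gave 19938 genes. Symbols of 19856 genes matched RefSeq. limma 3.58.1 (lmFit and eBayes, R 4.3.3) compared 4 hydrogen water with 4 control arrays with no filter on level, two-sided, with Benjamini-Hochberg adjustment over all genes and a threshold of 0.05; the script was tested on simulated data. The members and lists were chosen with earlier results of these data known. Genes were named by rule: paralogs and partners, the 6 smallest p-values per subunit and direction, stalk genes, Rpsa, Rps6, Rpl5, the 2 smallest p-values per direction of each list, and the 8 genes most like the mean profile; genes at the ends of the ranges of spread and correlation, and the genes called without control 3, were added after their values were seen. Alternatives covered the level filter, probe set choice, normalization, centring, variance model, array weights, a replicate block, and arrays left out. The number of arrays limits the precision. Promoter sequences are from RefSeq (GRCm38.p6).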

Additional observations from a re-analysis of the deposited data

Results flagged for a closer look

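In 10 of 132 groups of 4 arrays, 1 array stood apart from the other 3 by more than Dixon's 95% limit for 4 values, which chance does in about 1 in 20 groups. In 9 of the 10 it was control 3. There Rps14 was at 10.88 against 12.05 to 12.17 on the other controls, Rps19 at 9.13 against 10.23 to 10.43, Rps21 at 8.72 against 9.42 to 9.54, Rps2 at 12.85 against 13.18 to 13.20, Rpl36 at 10.92 against 11.63 to 11.75, Rpl5 at 11.36 against 11.98 to 12.10, Rpl10 at 12.18 against 12.63 to 12.72 and Rps23rg1 at 5.20 against 5.45 to 5.47. Of these, Rps23rg1 was dim, below the median level of all genes. Rps6 alone stood apart upward, at 13.74 against 13.35 to 13.39. In the hydrogen water group, Rps13 stood apart on hydrogen water 4, at 9.06 against 9.48 to 9.49. Since these genes move together over the arrays, the 10 are not independent of each other.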

How the results depend on the processing

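No ribosomal protein gene had an adjusted p under 0.05 under any alternative run, and the lowest adjusted p was 0.418, with array weights. Of 1122 single-gene differences recomputed, 110 changed sign, and 33 genes kept their sign throughout; 2 moved by at least the spread between arrays, Rps15 and Rps3a1, as given above. The number of genes with an unadjusted p under 0.05, 2 as reported, was 1 with only genes above the median level, 4 with array weights and 1 with the replicate block, and ran from 1 to 7 with single arrays left out. Over all 19938 genes it was 1429 as reported, 2069 with array weights and 1313 with the replicate block. It was 786 of the 9969 genes above the median level. With single arrays left out it ran from 958 to 1838 of all genes. The number of genes whose groups did not overlap, 1 as reported, was 2 with the mean of all probe sets, 4 after quantile normalization, 2 with each array centred on its median and 5 without control 3 and hydrogen water 4, and from 1 to 5 with single arrays left out, highest without control 3. The share over all genes was not taken under these alternatives, so these counts cannot be read as a change in the ribosomal protein genes. The median pairwise correlation, 0.45, was 0.56 with only genes above the median level, 0.55 with probe sets of several symbols kept, 0.53 with each array centred on its median, 0.54 with the probe set at the own locus (chosen after seeing the data), 0.56 with only canonical genes and 0.56 with only members above the median level, and from 0.40 to 0.55 with single arrays left out. The cause of these shifts was not tested. Array weights gave 9 genes higher and 54 lower. Same-numbered arrays of the groups did not deviate together (r -0.06, 0.06, -0.03 and -0.16 for numbers 1 to 4), so the replicate block, which left the median difference at -0.07, pairs arrays that share only a number. With 4 arrays a group the interval of a typical gene spans 0.33 on either side, so smaller differences were not resolved.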
